A study of Mus musculus with 4 samples.

Results

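Germinal centre genes were compared between both lymph nodes that drain the pancreas of the NOD mouse, an inbred strain that develops autoimmune diabetes spontaneously. The set holds 9 genes, Bcl6, Il21, S1pr2, Rgs13, Fas, Gcsam, Mybl1, Basp1 and Neil1, taken by name, and all 9 were matched through their transcript accession to 10 of the 41174 probes of the array. Both nodes came from each of 4 female NOD mice aged 12 weeks, for which the labels name no treatment: the gastric lymph node, on the left of the pancreas, and the pancreatico-duodenal lymph node, on the right. The nodes were homogenised after excision, and the RNA of a mouse's pair was hybridised together on a two-colour array, the gastric sample in red (Cy5) and the pancreatico-duodenal sample in green (Cy3). Log2 ratios are given as gastric over pancreatico-duodenal, and normalized intensities are probe brightness in arbitrary units after background correction and loess. No array had the dyes exchanged, so dye and node cannot be told apart for any gene. In whole-node RNA, fewer germinal centre cells and less RNA per cell cannot be told apart either.

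A germinal centre is a transient structure in the B cell follicle in which activated B cells divide, mutate their antibody genes and compete for help from follicular helper T cells. Bcl6, a transcriptional repressor, is required for both of these cell types, and interleukin 21 is the main cytokine that the T cells supply. S1pr2, a receptor for sphingosine 1-phosphate, holds B cells in the centre of the follicle, and Fas is a death receptor that germinal centre B cells carry in the mouse. Pancreatic nodes are the site where T cells first meet islet antigens in this strain.

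Markers of lymph node cells were detected, which cannot tell the gastric from the pancreatico-duodenal node. All 20 B cell and all 17 T cell genes tested were well above background on the 4 arrays in both nodes. The share of probes well above background was 67.1% to 71.5% in the gastric and 59.7% to 62.7% in the pancreatico-duodenal channel, and no spot was saturated. In mouse 3 the pancreatico-duodenal sample stood apart by its exocrine pancreas genes. The processed signals of 20 exocrine pancreas genes summed to 164850 in its gastric node and 4810300 in its pancreatico-duodenal node, where the other mice reached at most 188250. Results in which mouse 3 weighs are therefore also given without it. Fat cell genes differed between the nodes of other mice. The median log2 ratio of 10 adipocyte genes, gastric over pancreatico-duodenal, was 1.63, -1.47, 0.15 and -1.38 in mice 1 to 4. The part of this list in other values was not tested.

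Promoter windows of 8 of the 9 genes were found in RefSeq (build GRCm38.p6), as the 250 bases before the transcription start, 5′ to 3′ on the strand of the gene. S1pr2 and Neil1 are shown first because their ratios ran together over the 4 mice. They were also the only windows of the set with CAGGTG, the E-box bound by E2A proteins in B cells, in capitals here and read as CACCTG on this strand.
S1pr2, chr9:20976794-20977043, minus strand: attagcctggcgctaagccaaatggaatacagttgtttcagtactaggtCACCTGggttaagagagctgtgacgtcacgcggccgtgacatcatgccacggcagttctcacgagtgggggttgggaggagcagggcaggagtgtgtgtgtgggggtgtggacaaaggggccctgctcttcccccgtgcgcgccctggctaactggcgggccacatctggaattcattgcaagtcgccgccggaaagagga
Neil1, chr9:57148306-57148555, minus strand: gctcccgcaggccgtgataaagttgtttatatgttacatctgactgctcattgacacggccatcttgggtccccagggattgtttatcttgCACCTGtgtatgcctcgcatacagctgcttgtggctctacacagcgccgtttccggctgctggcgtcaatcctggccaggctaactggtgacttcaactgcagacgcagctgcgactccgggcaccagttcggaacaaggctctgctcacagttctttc
Of all 32851 windows in the table, 17.2% held this motif on either strand. Bcl6 and Fas are shown because both were measured above background and above 0 in every mouse and both hold the same motif. The capitals mark TTCNNNGAA, a palindromic core that STAT factors and the BCL6 protein can both bind.
Bcl6, second start, chr16:23981284-23981533, minus strand: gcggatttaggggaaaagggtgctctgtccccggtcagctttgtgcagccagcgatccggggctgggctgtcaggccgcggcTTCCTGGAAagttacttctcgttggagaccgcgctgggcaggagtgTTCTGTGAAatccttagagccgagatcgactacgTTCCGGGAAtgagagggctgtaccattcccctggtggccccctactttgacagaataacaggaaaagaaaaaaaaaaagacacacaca
Fas, chr19:34290409-34290658, plus strand: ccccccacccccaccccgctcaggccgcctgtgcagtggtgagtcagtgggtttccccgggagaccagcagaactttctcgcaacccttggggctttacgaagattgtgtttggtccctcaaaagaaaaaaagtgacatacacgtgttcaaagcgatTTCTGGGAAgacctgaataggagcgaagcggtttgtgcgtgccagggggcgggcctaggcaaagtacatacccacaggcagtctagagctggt
The core was found 3 times in this Bcl6 window, 1 time in the window of the other Bcl6 start and 1 time in that of Fas, and in 7.02% of all windows. In all, 8 motifs were searched on both strands of the 9 windows, and these were picked for showing after the matches were known. Of the others, the MYB motif AACNG was in 8 of the 9 windows and in 74.2% of all windows, the NFAT core GGAAAA in 4 (20.4% of all), the AP-1 motif TGANTCA in 1 (6.75%) and the TATA box TATAAA in 1 (12.4%). The MEF2 motif, CTA and TAG with 4 bases between them (3.20%), and the E2F motif TTTGGCGC (0.417%) were in none. These matches describe letters in the windows and are no evidence of binding.

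The comparison asked whether these genes have different levels in the gastric and the pancreatico-duodenal node of the same mouse. None of the 8 genes that could be tested passed limma's moderated test of the 4 ratios against 0, at an adjusted p under 0.05 over 21333 features. Of these, 4 had an unadjusted p under 0.05, namely Bcl6, Il21, Fas and Basp1. Il21 entered the test through the gastric channel alone. With the filter in both channels, which Il21 did not pass, 3 of 7 genes had an unadjusted p under 0.05. Over all features 7.57% passed, 3.11% as higher and 4.46% as lower in the gastric node, and 6539 had an unadjusted p under 0.05. The median ratio of the 8 genes was -0.03, against 0.03 for all features. Means were above 0 for 4 genes, Il21 among them, and below 0 for the other 4. The sign was the same in every mouse for Bcl6, Fas and Basp1, and for 41.1% of all features. Il21 read above 0 in every mouse too, but against pancreatico-duodenal signals that were not well above background, and in mouse 1 neither channel was. An exact two-sided sign-flip test over 4 mice cannot reach a p under 0.05.

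**Figure D1:**
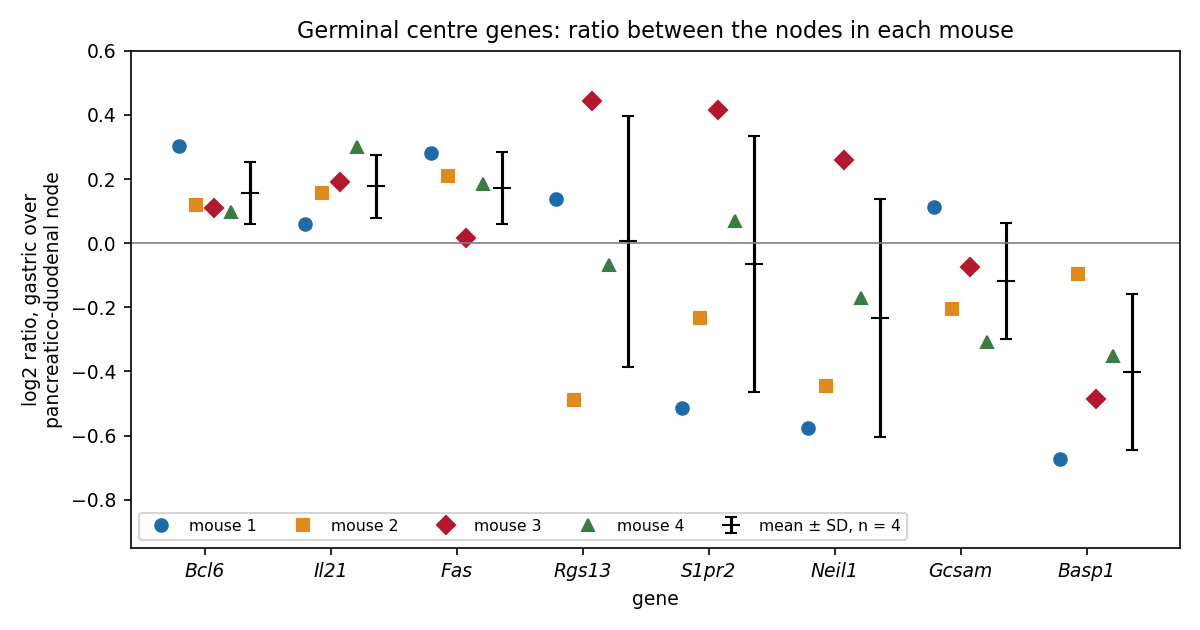
Log2 ratio of gastric over pancreatico-duodenal node (y axis) for the 8 tested germinal centre genes (x axis), with a symbol for each of the 4 mice and the mean ± SD beside them. Bcl6 and Fas lie above 0 and Basp1 below 0 in every mouse, while Rgs13, S1pr2 and Neil1 spread over both sides of 0 with mouse 3 highest. Il21 points lie above 0 too, but its signal was not well above background in any pancreatico-duodenal node. In mouse 1 its gastric signal was not either, so no direction is drawn there.

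Bcl6, the repressor that defines the germinal centre programme, was the brightest probe of the set. Its normalized intensity was 6835, 6414, 5084 and 5701 in the gastric nodes of mice 1 to 4, against 5544, 5901, 4712 and 5328 in their pancreatico-duodenal nodes. The gastric node was the higher one in each mouse, and the levels of the groups overlapped. The log2 ratios were 0.30, 0.12, 0.11 and 0.10 in mice 1 to 4, so that mouse 1 lay apart from 3 nearly equal mice. The mean was 0.16 ± 0.10 (SD, n = 4), a 1.12-fold difference with a 95% interval of 0.03 to 0.29 before adjustment, and it did not pass (adjusted p = 0.118).

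The Fas probe was spotted 10 times on each array, the other probes of the set 1 time. The SD of its log2 ratio over these spots was 0.03 to 0.04 on each array. Its intensity was 2086, 2461, 1659 and 2048 in the gastric nodes, against 1719, 2127, 1641 and 1802 in the pancreatico-duodenal nodes. The ratio was 0.28, 0.21, 0.02 and 0.18 in mice 1 to 4, near 0 in mouse 3 alone, so the mice differed by more than the spots did. The mean of 0.17 ± 0.11 (SD, n = 4) did not pass (adjusted p = 0.112), and without mouse 3 it was 0.22 and did not pass either (adjusted p = 0.108). Fas is carried by many activated lymphocytes as well as by germinal centre B cells.

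With median centring of each array in place of loess, both Bcl6 and Fas passed, at 0.77 and 0.72. The median of all features stood at 0.32 in that setting and 69.8% of them passed. Relative to that median Bcl6 was 0.44 and Fas 0.39 higher, against 0.13 and 0.14 relative to the median with loess.

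Il21, the gene of the helper cytokine, was the dimmest of the tested genes. Its probe was well above background in the gastric node of mice 2, 3 and 4 and in no pancreatico-duodenal node. The measured intensity was 80.9, 91.9, 80.8 and 95.4 in the gastric nodes, against 77.7, 82.4, 70.8 and 77.4 in the pancreatico-duodenal nodes, an offset of 50 included. The pancreatico-duodenal level is therefore only a bound, and no direction is drawn for mouse 1, where the gastric signal was not well above background either. A bound on the difference came to 1.13-fold, with mouse 1 included although neither of its channels was well above background. It set the mean of the 4 gastric levels, after scaling intensities to a common distribution, against a pancreatico-duodenal mean. That mean took, per array, the probe's own signal or the lowest signal well above background, whichever was higher. The probe's own signal was the higher one, so the bound equals the measured ratio of 0.18 ± 0.10 on the log2 scale (SD, n = 4), which did not pass (adjusted p = 0.0967). The offset draws the ratios of dim probes towards 0, and the ratio computed by the scanner software, which adds none, was 0.05, 0.78, 0.73 and 0.84 in mice 1 to 4. Its mean, 0.60, did not pass either (adjusted p = 0.0754). With median centring the ratio was -0.027, or -0.35 relative to the median of all features, against 0.15 relative to the median with loess.

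S1pr2, Neil1 and Rgs13 varied most between mice. S1pr2 was read by 2 probes. The brighter probe gave intensities of 242, 260, 263 and 297 in the gastric nodes, against 345, 305, 197 and 283 in the pancreatico-duodenal nodes. Its ratios were -0.51, -0.23, 0.42 and 0.07 in mice 1 to 4, lower in the gastric node of mice 1 and 2 and higher in that of mice 3 and 4. The mean was -0.07 ± 0.40 (SD, n = 4; adjusted p = 0.790), with an interval of -0.44 to 0.31, which leaves room for a difference in either direction. The dimmer probe read -0.39, -0.15, -0.0025 and -0.14, with the mice in the same positions except that it stayed below 0 in all of them. Without mouse 3 the brighter probe averaged -0.23, and without mouse 1 it averaged 0.084.

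Neil1 encodes a DNA glycosylase that removes oxidised bases. It had intensities of 445, 479, 473 and 496 in the gastric nodes, against 663, 653, 395 and 558 in the pancreatico-duodenal nodes. Its ratios were -0.58, -0.45, 0.26 and -0.17 in mice 1 to 4, so that mouse 3 alone was higher in the gastric node. The mean of -0.23 ± 0.37 (SD, n = 4) did not pass (adjusted p = 0.309), and it was -0.40 without mouse 3, -0.16 without mouse 2 and -0.12 without mouse 1. With median centring Neil1 read 0.20 and S1pr2 0.25, or -0.13 and -0.07 relative to the median of all features in that setting.

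Rgs13, a regulator that shortens G protein signals from chemokine receptors, had intensities of 191, 235, 209 and 287 in the gastric nodes, against 173, 329, 154 and 301 in the pancreatico-duodenal nodes. The ratios were 0.14, -0.49, 0.44 and -0.07, with mice on both sides of 0 and a mean of 0.01 ± 0.39 (SD, n = 4; adjusted p = 0.982). Without mouse 3 the mean was -0.14. The SDs of Rgs13 and S1pr2 were larger than those of 94.5% and 93.9% of features of like intensity, within 0.5 log2 units, and that of Neil1 was larger than 89.1%. For Bcl6 and Fas the shares were 45.8% and 44.8%.

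Within single arrays, some of these differences were large against the error of a spot and others were not. The p-values in the deposited scanner files, which weigh a spot's ratio against the software's error model on that array, were 0.000635 for S1pr2 in mouse 1, where the gastric node was lower, and 0.00165 in mouse 3, where it was higher, but 0.177 in mouse 2 and 0.562 in mouse 4. The other S1pr2 probe had 0.518 in mouse 3. For Rgs13 they were 0.00510 in mouse 2 and 0.000773 in mouse 3, with opposite directions, and 0.648 and 0.693 in mice 1 and 4. For Neil1 they were 0.000574, 0.0193, 0.0976 and 0.402 in mice 1 to 4. Such p-values compare the RNA samples on an array and carry nothing about other mice.

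**Figure D2:**
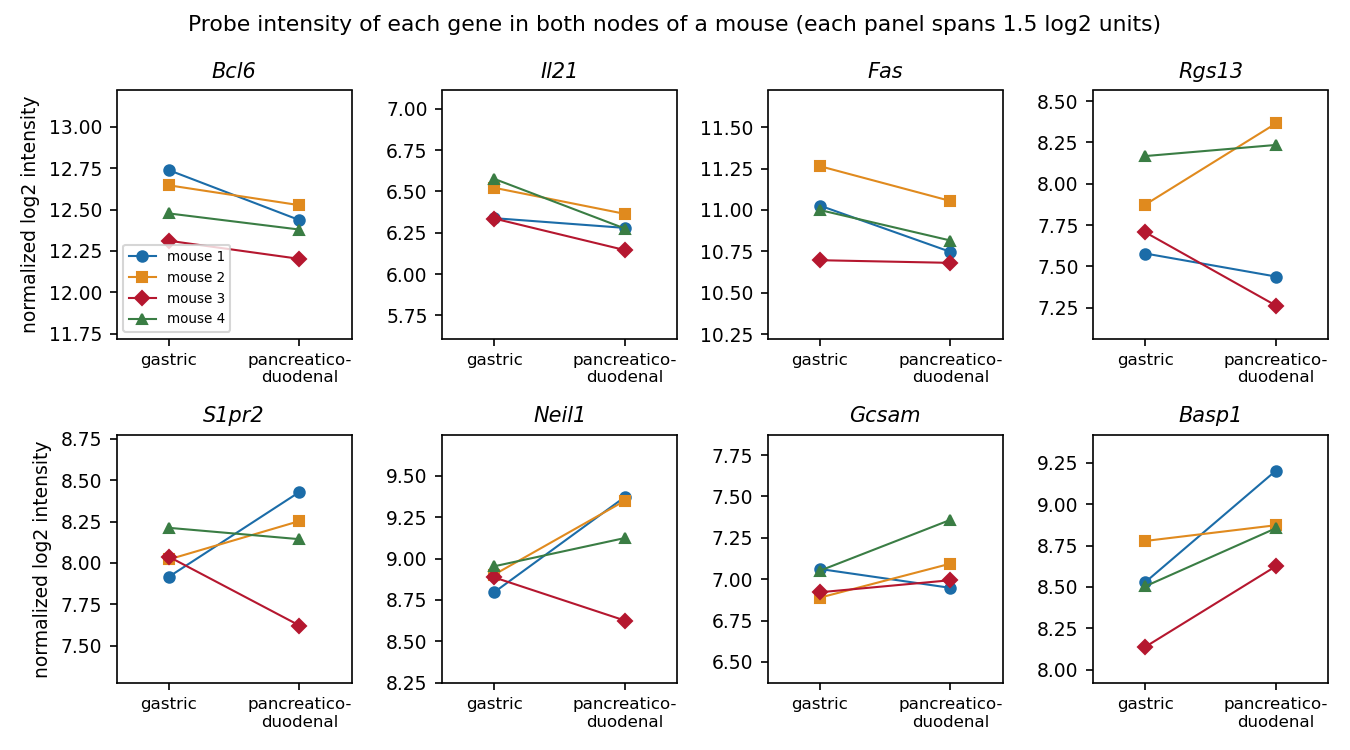
Normalized log2 intensity (y axis) of the 8 tested genes in the gastric and pancreatico-duodenal node (x axis), a line for each mouse and the same 1.5-unit span in every panel. Lines for Bcl6 and Fas fall to the right in every mouse and those for Basp1 rise, while those for Rgs13, S1pr2 and Neil1 cross. Those for Il21 fall too, but end at pancreatico-duodenal signals not well above background, and in mouse 1 neither end was.

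Basp1, which encodes a membrane-associated acidic protein first described in brain, had the largest mean difference of the set. Its intensity was 369, 439, 282 and 363 in the gastric nodes, against 589, 469, 395 and 463 in the pancreatico-duodenal nodes. The gastric node was lower in 4 of 4 mice, with ratios of -0.67, -0.10, -0.49 and -0.35. The mean of -0.40 ± 0.24 (SD, n = 4) was a 1.32-fold lower level and narrowly did not pass (adjusted p = 0.0620). It passed in 1 alternative, scaling the 4 arrays to a common spread, at -0.39 (adjusted p = 0.0435), and with median centring it was -0.0039, or -0.33 relative to the median of all features, against -0.43 relative to that median with loess.

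Gcsam encodes a signalling adaptor of germinal centre B cells that acts on their motility. It read 134, 118, 121 and 133 in the gastric nodes, against 123, 137, 127 and 164 in the pancreatico-duodenal nodes. The gastric node was the lower one in 3 of 4 mice, and the mean ratio of -0.12 ± 0.18 (SD, n = 4) did not pass (adjusted p = 0.346). It was -0.20 without mouse 1 and -0.05 without mouse 4, and did not pass in either case. Mybl1, which encodes the transcription factor A-MYB of dividing germinal centre B cells, was well above background in neither node on any of the 4 arrays and was not tested.

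Mice 1, 2, 4 and 3, from the lowest to the highest ratio, was the order for S1pr2 and Neil1. It was also the order for 11 of 24 tested proliferation genes, for 5 of 39 tested genes of a germinal centre B cell list and for 7.75% of all features, so it was not particular to germinal centre B cell genes. That list was compiled from general knowledge and holds none of the 9 genes. Mef2b, which encodes a transcription factor that activates Bcl6, was chosen for its likeness to Neil1. Among 13190 named genes, the 3 with the smallest root mean square difference from Neil1 over the 4 mice were Cdca2 (0.0772), Pipox (0.0914) and Mef2b (0.0920). Mef2b had ratios of -0.49, -0.29, 0.29 and -0.15, with a mean of -0.16 ± 0.33 (SD, n = 4; adjusted p = 0.429). Cdca2, a gene of mitotic chromosomes, read -0.48, -0.37, 0.31 and -0.09, and Pipox, a peroxisomal oxidase gene, averaged -0.24. For Basp1, the 3 nearest genes were Msc (0.0895), Ffar2 (0.0903) and Bmp4 (0.104), at -0.41, -0.36 and -0.37. Bmp4, a growth factor gene, passed (adjusted p = 0.0436). Likeness over 4 mice is a description, since few values are matched.

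Most genes of dividing cells had their highest ratio in mouse 3. All 24 proliferation genes tested were above 0 in mouse 3 and 21 of them had their highest ratio there, which held for 27.3% of all features. The list median was -0.19, -0.13, 0.47 and 0.06 in mice 1 to 4. Over the 4 mice 2 of the 24 passed as higher and none as lower, against 3.11% and 4.46% of all features. They were Pcna (0.33, adjusted p = 0.0393) and Mcm4 (0.33, adjusted p = 0.0426), both above 0 in every mouse. Mki67 and Mcm4 were highest in mouse 1, at 0.99 and 0.50. The B cell list was highest in mouse 1, with medians of 0.28, 0.02, 0.19 and -0.01. The exocrine pancreas list had a median of -4.69 in mouse 3 and of -0.33, 0.21 and 0.76 in mice 1, 2 and 4, and the part of either list in the S1pr2 and Neil1 values was not tested. It could not be told which node varied. Neil1 levels had an SD of 0.07 over the gastric and 0.35 over the pancreatico-duodenal nodes as normalized, but of 0.17 and 0.21 after the arrays were brought to a common intensity distribution, an alternative chosen after seeing the data.

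**Figure D3:**
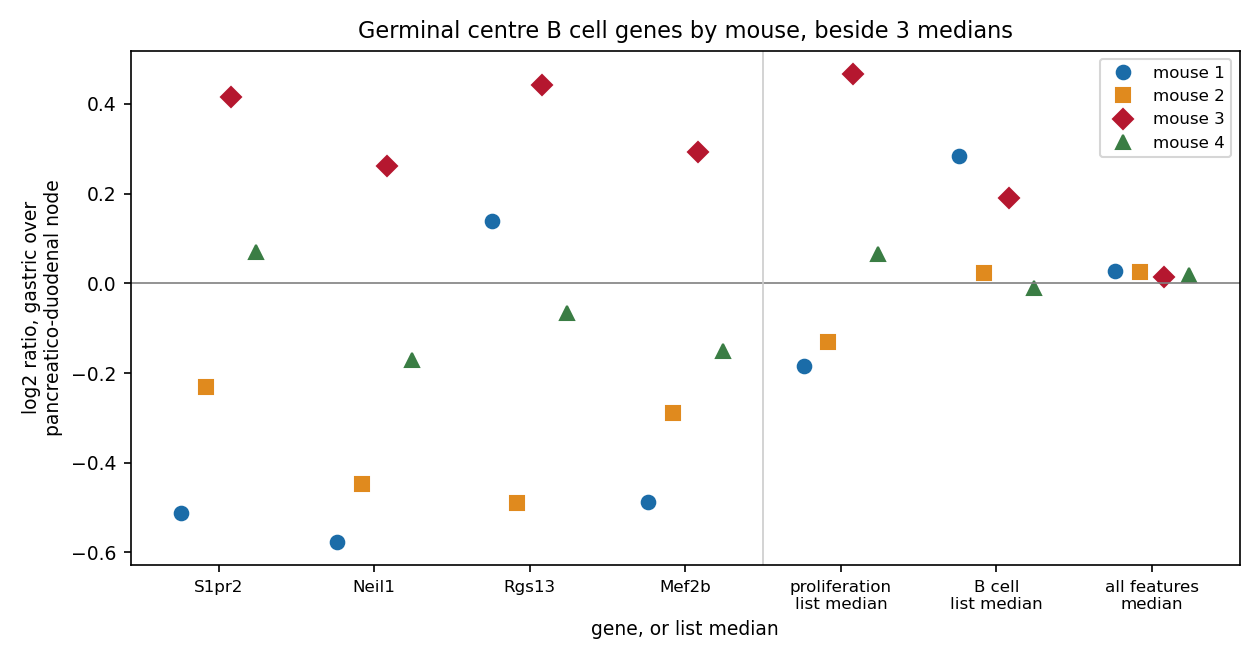
Log2 ratio of gastric over pancreatico-duodenal node (y axis) in each of the 4 mice for 4 germinal centre B cell genes, and the medians of the proliferation list, the B cell list and all features (x axis). Mouse 3 is the highest for all 4 genes and for the proliferation median of 0.47. Mouse 1 is the lowest for S1pr2, Neil1 and Mef2b but the highest for the B cell median. The genes shown are the 3 of 8 tested members with mouse 3 highest, and Mef2b, chosen for its likeness to Neil1. Mouse 1 is highest for another 3 members. Of the 39 germinal centre B cell list genes, 15 are highest in mouse 3 and 14 in mouse 1.

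Other genes of the germinal centre B cell differed little between the nodes. Of 39 tested list members none was higher, 2 were lower and 37 did not pass, and the list median was 0.05, against 0.03 for all features. Of all features 3.11% were higher and 4.46% lower. Arhgef1, a guanine nucleotide exchange factor that acts downstream of S1pr2, was lower in the gastric node, with ratios of -0.57, -0.43, -0.46 and -0.43 in mice 1 to 4 (-0.47 ± 0.06, SD, n = 4; adjusted p = 0.0219). With median centring it was at 0.13 and did not pass, or -0.19 relative to the median of all features. The ephrin receptor gene Ephb1 was lower as well (-0.28 ± 0.10, SD, n = 4; adjusted p = 0.0442). The brightest members that did not pass were Irf8 at -0.11, Pou2af1 at 0.10, Cd83 at -0.07 and Ccr6 at 0.21. Irf8 and Pou2af1 are B cell transcription regulators, Cd83 marks the light zone of the germinal centre and Ccr6 is a chemokine receptor gene. A further Irf8 probe read -0.32. With the mean of its probes Irf8 passed as lower, at -0.21 (adjusted p = 0.0440). With median centring Irf8 and Cd83 turned above 0. Relative to the median of all features they were at 0.28 and 0.27, against -0.14 and -0.10 with loess. Without mouse 3 Pou2af1 turned below 0.

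Among follicular helper T cell genes 4 of 31 were higher in the gastric node, none was lower and 27 did not pass, with a list median of 0.08. The shares over all features were 3.11% higher and 4.46% lower. Sh2d1a, which encodes the SAP adaptor that lets T cells hold on to B cells, had ratios of 0.27, 0.65, 0.73 and 0.67 in mice 1 to 4. Every mouse was above 0, and the mean of 0.58 ± 0.21 was a 1.49-fold higher level (SD, n = 4; adjusted p = 0.0298). Tnfsf8, the gene of the CD30 ligand, rose by 0.40 ± 0.15, Tox, a transcription factor gene, by 0.36 ± 0.13 and Cd200, a surface glycoprotein gene, by 0.31 ± 0.12 (SD, n = 4; adjusted p = 0.0363, 0.0373 and 0.0443). A further Tox probe read 0.16. With the ratio of the scanner software Tnfsf8 passed, at 0.47, and Sh2d1a (0.61, adjusted p = 0.0561), Tox (0.44, adjusted p = 0.0653) and Cd200 (0.30, adjusted p = 0.0654) did not. The brightest members that did not pass were Klf2 (-0.01), Selplg (-0.16) and Ccr7 (-0.31), which are genes of migration that follicular helper T cells keep low, besides Pou2af1. Median centring turned Klf2, Selplg and Ccr7 above 0. Relative to the median of all features they were at 0.47, 0.19 and 0.0089, against -0.036, -0.19 and -0.34 with loess. Means were above 0 for 20 of the 31 genes. Others that did not pass lay on both sides of 0, among them Pdcd1 (0.35), Icos (0.06), Cd40lg (-0.09), Il21r (-0.32) and Il6ra (-0.50). Il21r and Il6ra were below 0 in every mouse. The 4 genes that passed are also expressed by other activated T cells. Of 17 general T cell genes 2, Cd28 and Cd3g, were higher and none was lower.

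Plasma cells are the antibody-secreting cells that leave the germinal centre. Of 17 plasma cell genes 2 were lower in the gastric node and none was higher, against 4.46% and 3.11% of all features. They were Tnfrsf17, the gene of the survival receptor BCMA, and Xbp1, a transcription factor gene of secretory cells. With median centring Xbp1 read above 0, but -0.06 relative to the median of all features.

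Genes of follicular dendritic cells and follicle stroma were lower in 5 of 23 cases, higher in none, and did not pass in 18. For all features the shares were 4.46% lower and 3.11% higher. The list median was -0.06, with means above 0 for 8 of the 23 genes and below 0 for the rest. Among those above 0 were Cr2 (0.45, adjusted p = 0.124), Fcgr2b (0.35, adjusted p = 0.0563), Cxcl13 (0.23) and Fcer2a (0.15). None of these passed, and Cr2 and Fcer2a are also on the B cell list. The 5 lower genes were the complement gene C4b (-0.55 ± 0.18, SD, n = 4), the lipopolysaccharide-binding protein gene Lbp (-0.42 ± 0.16), the adhesion gene Icam1 (-0.40 ± 0.07), the lymphotoxin beta receptor gene Ltbr (-0.35 ± 0.15) and the addressin gene Madcam1 (-0.25 ± 0.09). Adjusted p was 0.0251 for Icam1, 0.0290 for C4b, 0.0352 for Lbp, 0.0447 for Ltbr and 0.0497 for Madcam1. All 5 are also expressed by other stromal, vessel or myeloid cells, and 7 of 14 macrophage genes were lower too, with a list median of -0.76 whose part in the 5 values was not tested. With the ratio of the scanner software C4b and Lbp passed, and Icam1, Ltbr and Madcam1 did not. With median centring C4b, Icam1, Ltbr and Madcam1 read above 0, but -0.22, -0.24, -0.17 and -0.05 relative to the median of all features. The brightest members that did not pass were Mfge8 (0.10), Clu (0.01), Enpp2 (-0.23) and Prnp (-0.19). Without mouse 1 Enpp2 (-0.49, adjusted p = 0.0421) and Prnp (-0.27, adjusted p = 0.0335) passed as lower. Both turned above 0 with median centring. Relative to the median of all features they were at 0.093 and 0.096, against -0.26 and -0.22 with loess. Mfge8 and Clu turned below 0 with the ratio of the scanner software.

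Leaving out a mouse changed the calls of the 3 follicle lists. Of the 91 distinct genes 11 passed with 4 mice, 18 passed without mouse 1, and none passed without mouse 2, mouse 3 or mouse 4. In those 3 fits the count over all features was 0, 3 and 1. The log2 ratios of the 11 genes stayed at 81.1% to 118% of their value over 4 mice in every fit with a mouse left out. These genes were picked by passing on the same 4 ratios, which favours a small spread, so the range does not show that values are stable.

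**Figure D4:**
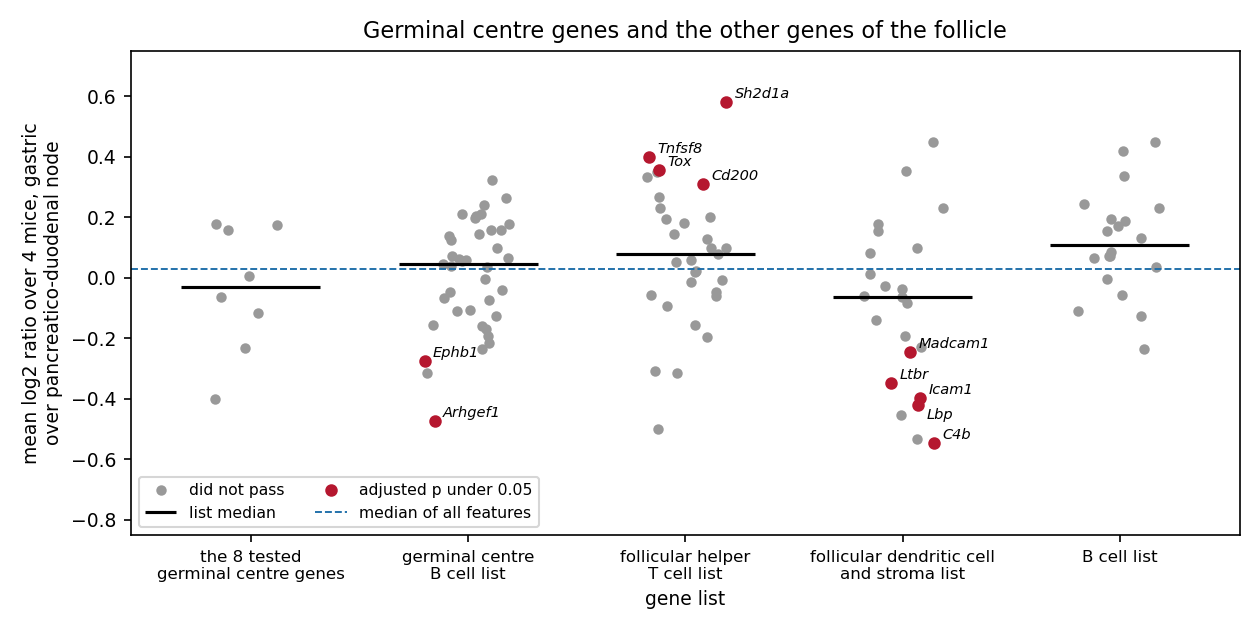
Mean log2 ratio over 4 mice of each gene (y axis) for the 8 tested germinal centre genes and 4 further lists (x axis), with genes that passed in red and named, list medians as black bars and the median of all features as a dashed line. No germinal centre gene and no B cell list gene is red, 4 follicular helper T cell genes are red above 0, and 2 germinal centre B cell and 5 stromal genes are red below 0.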

How the data were processed

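Per the file headers, the authors scanned all 4 arrays together on 1 slide and deposited spot intensity values, mean and background, from Agilent Feature Extraction 10.2.1.3. The same deposited files hold processed intensity after background subtraction and dye normalization, its log10 ratio of Cy5 over Cy3, and a p-value for each ratio. The deposited table of the whole series holds log2 ratios that equalled the processed log ratios to within 5.11e-05, with column medians of -0.15, -0.06, -0.03 and -0.03 for mice 1 to 4.

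Background was removed from the mean intensities by normexp (offset 50), followed by loess within each array, in limma 3.58.1 (R 4.3.3), with control and outlier-flagged spots at weight 0. Flagged spots were left out, spots of a probe averaged, and probes kept where 1 channel was well above background on 3 or more of the 4 arrays (27617 probes). Accessions were named through RefSeq (GRCm38.p6), which named 24844 probes and left 16330 unnamed. The brightest kept probe stood for a gene, which gave 21333 features. Ratios were tested against 0 with lmFit and eBayes and adjusted by the Benjamini-Hochberg method over all features. The labels number the mice. A p-value sets the mean ratio of these 4 mice against their spread, which eBayes moderates towards the spread of all features. The number of arrays limits the precision. The steps were tested on simulated data.

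The members, lists and tests were chosen with earlier results of these data known. Named genes were the 9 members, every called gene of the 3 follicle lists with the 4 brightest others of each, up to 2 called genes of other lists, and for the 2 members of largest mean ratio the 3 most alike genes. Alternatives covered background, normalization, filters, probe choice, variance model, pairing, the scanner's ratio, the series table and each mouse left out.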

Additional observations from a re-analysis of the deposited data

Results flagged for a closer look

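Among 44 named genes, 3 had a mouse far from the other mice, by Dixon's test at its 95% critical value, and chance flags about 1 in 20. Mouse 1 was the distant one in each. Bcl6 was at 0.30 in mouse 1, against 0.10 to 0.12 in the others. Sh2d1a was at 0.27 in mouse 1, against 0.65 to 0.73. The macrophage scavenger receptor gene Cd163 was at -0.82 in mouse 1, against -1.46 to -1.37.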

How the results depend on the processing

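No germinal centre gene passed in 13 of 15 alternatives. With median centring 2 passed, Bcl6 (0.77) and Fas (0.72), and with arrays scaled to a common spread 1 passed, Basp1 (-0.39). Median centring moved the median of all features to 0.32 and the count of called features to 14901 (12823 higher and 2078 lower), against 663 higher and 952 lower with loess, and that of the follicle lists to 70. With the channels treated as unpaired, without the block that pairs both nodes of a mouse, 6 features and 0 genes of the follicle lists passed. The follicle lists had 5 calls with the scanner software's ratio and 5 with the authors' series table, where 5.05% and 5.06% of all features passed. Leaving out a mouse gave 0 to 2167 called features, 0 to 18 calls in the follicle lists and 0 among the germinal centre genes. The values ranged from -0.23 to 0.084 for S1pr2 and from -0.14 to 0.17 for Rgs13. Fewer arrays enter each of these fits.

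Median centring turned the sign of Il21 (-0.027), S1pr2 (0.25), Neil1 (0.20), Arhgef1 (0.13), C4b (0.10), Icam1 (0.080), Ltbr (0.15), Madcam1 (0.28), Irf8 (0.61), Cd83 (0.60), Klf2 (0.80), Selplg (0.51), Ccr7 (0.33), Enpp2 (0.42), Prnp (0.42), Xbp1 (0.26), Ffar2 (0.083), Bmp4 (0.0084) and Cdca2 (0.20). Of these 19 genes, 11 were on the same side of the median of all features as with loess. Il21, Irf8, Cd83, Klf2, Selplg, Ccr7, Enpp2 and Prnp changed side. Scaled arrays turned Rgs13 (-0.0014) and Klf2 (0.0077). Klf2 also turned with a normexp offset of 16 (0.0027), the mean of its probes (0.016), and without mouse 1 (0.055) or mouse 3 (0.0027), in a range from -0.068 to 0.055 when a mouse was left out. The scanner software's ratio turned Mfge8 (-0.044) and Clu (-0.062), and the series table gave -0.044 and -0.062. Clu turned without mouse 1 (-0.020) and mouse 2 (-0.0052), in a range from -0.020 to 0.061, and Pou2af1 without mouse 3 (-0.018). The cause was not tested for any of these. Signal over background limits Il21 and Mybl1. The Gcsam probe was dim but well above background in both nodes of all 4 mice. Il21 did not pass the filter in both channels and has no value there.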
